A study of Mus musculus with 16 samples.

Results

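The genes described here are 40 interferon-stimulated genes, the transcripts that cells switch on when interferons bind their receptors. They were taken by symbol from a listed set, out of 46078 genes in a table of RNA fragment counts from 16 mouse melanoma libraries. No measured value entered the choice of a gene, although the list was drawn up with earlier results of these data known. All 40 had enough counts to be tested, beside 16101 genes in all, and the smallest count of any of them in any library was 36.

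B16F10-GP cells, a mouse melanoma line, had been implanted in matrigel in the flanks of female C57BL/6 mice aged 6 to 8 weeks. There were 4 groups of 4 tumour libraries. One group received vehicle only and is labelled untreated. One received a single X-ray dose of 5 Gy to the right flank on day 10. One received QH-II-066, a compound given here by its code name, at 10 mg/kg by intraperitoneal injection daily for 7 days from day 10. The last received 5 Gy in the morning of day 10 and QH-II-066 from that evening. Every group carried the same transplanted cells, so all comparisons are within 1 tumour model in 1 mouse strain. Which flank each sequenced tumour grew on is not stated, and neither is whether each library stands for its own animal. The p-values below therefore measure the spread between these libraries.

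Type I interferons signal through a shared receptor to the kinases Jak1 and Tyk2, which activate transcription factors, Stat2 among them. Together with Irf9 they bind the interferon-stimulated response element (ISRE) in target promoters. Interferon gamma, made mainly by T cells and natural killer cells, acts through its own receptor and a related element (GAS), and many genes of the list respond to both kinds of interferon. In tumours the products of these genes are made by the cancer cells and by infiltrating immune cells alike.

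Library totals ran from 6994198 to 40799942 counts, and the lowest belonged to replicate 4 of the group given both treatments. Melanocyte genes were abundant throughout, with Pmel between 3716 and 6166 CPM (counts scaled to a common library total). In 5 libraries the skin epithelium score, the mean log2 CPM of 12 epidermal genes, was above 0. They were replicates 2 and 4 of the 5 Gy group and replicates 2, 3 and 4 of the group given both treatments. Leaving them out keeps 1 library of the last group. The results below are given with and without these libraries where they differ. In bulk tumours, fewer cells of a type and less RNA per cell cannot be told apart.

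The promoters are shown because the ISRE defines the response these genes are named for. RefSeq promoter windows on GRCm38.p6, from 250 bases before to 50 bases after a transcript start, were at hand for 30 of the 40 genes, as 36 windows. The ISRE core, searched on both strands as GAAA, any 2 bases and GAAA, was in 15 of the 36 windows (41.7%), belonging to 15 genes. It was in 3.44% of all 32851 windows of the same length. The GAS core, TTCNNNGAA on both strands, was in 8 of the 36 windows (22.2%) and in 8.30% of all windows. Both were in 4 of the windows, and in the window of Bst2 an ISRE and a GAS match overlap. The 250 upstream bases of 3 genes are printed 5′ to 3′ on the gene's strand, with ISRE matches in capitals. They were picked, after the matches were seen, to show 1 gene with overlapping copies (Isg15), 1 with separate copies on the opposite strand (Ifit3) and 1 GTPase gene with a single copy (Gbp2).
Isg15, chr4:156200819-156201068, minus strand: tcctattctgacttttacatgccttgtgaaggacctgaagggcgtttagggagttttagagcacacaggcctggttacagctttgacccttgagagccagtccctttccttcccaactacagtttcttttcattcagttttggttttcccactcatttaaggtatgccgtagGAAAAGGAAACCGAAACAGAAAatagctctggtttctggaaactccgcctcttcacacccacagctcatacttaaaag
Ifit3, chr19:34583279-34583528, plus strand: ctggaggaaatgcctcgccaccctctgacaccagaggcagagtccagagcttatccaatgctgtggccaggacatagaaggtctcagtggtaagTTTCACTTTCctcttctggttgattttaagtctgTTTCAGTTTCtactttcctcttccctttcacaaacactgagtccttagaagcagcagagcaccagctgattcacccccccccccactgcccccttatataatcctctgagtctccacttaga
Gbp2, chr3:142620413-142620662, plus strand: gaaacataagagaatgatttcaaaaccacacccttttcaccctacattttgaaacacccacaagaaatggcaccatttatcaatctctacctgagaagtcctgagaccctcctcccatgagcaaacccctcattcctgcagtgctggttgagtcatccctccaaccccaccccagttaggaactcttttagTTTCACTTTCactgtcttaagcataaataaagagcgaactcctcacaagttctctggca
In Isg15 the capitals hold 3 overlapping matches that begin 78, 72 and 66 bases before the start. In Ifit3 the matches begin 156 and 122 bases before the start, and in Gbp2 the match begins 59 bases before it. A match describes the letters in the window and does not show binding. Iigp1, Parp14, Dhx58, Zbp1, Usp18, Parp9, Rtp4, Mx2, Oas2 and Mx1 had no window in the table used.

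Compared per kilobase of exon, the levels of the 40 genes ran from 1.86 CPM per kilobase for Mx2 to 884 for Bst2, as means over the 16 libraries. Bst2 encodes tetherin, which holds budding virus at the cell surface. Next came the GTPase genes Igtp (279 CPM per kilobase), Gbp2 (194) and Iigp1 (130.1). The products of Gbp2 and Iigp1 attack the vacuoles of intracellular pathogens. Then came Isg15 (123), a ubiquitin-like protein that is joined to other proteins. Mx1 (2.74 CPM per kilobase) and Oas3 (1.98), both classical antiviral genes, were among the 4 lowest. In untreated tumours the members ranged from a mean of 7.43 CPM for Mx2 to 615 CPM for Bst2. On mm10 the Bst2 gene lies at chr8:71534264-71537437 and Isg15 at chr4:156199424-156200818.

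The first comparison asks whether radiation alone changed these genes. None of the 40 passed an adjusted p of 0.05 in edgeR's quasi-likelihood test after 5 Gy, against 1.26% of all genes tested (1.25% higher and 0.00621% lower). None reached an unadjusted p under 0.05, which 15.1% of all genes did, and DESeq2 and limma-voom also called none of the 40. The median log2 fold change of the list was 0.08 (all genes -0.08), with 26 of 40 above 0 (38.2% of all genes). For no member were the irradiated libraries all above or all below the untreated ones (5.97% and 3.13% of all genes). The values ran from -0.46 to 0.49, and for 33 of 40 the 95% interval lay within 1 log2 unit of 0, so that a change of that size lay outside it. For the other 7, among them Oas3 and Bst2, a change of that size remained within the interval. The 4 transcription factors Irf7, Irf9, Stat2 and Irf1 were all above 0, with a median of 0.18, and none passed. Without the skin-bearing libraries the median of the list was -0.01. With the macrophage score as a covariate, an alternative added after seeing the data, it was -0.80, with 1 of 40 above 0 and none called. The macrophage scores of these 2 groups did not overlap, so that value extends the slope within groups beyond any shared range.

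Beside this, other genes of the same tumours did rise after 5 Gy: 9 of 10 fibroblast markers, 3 of 12 macrophage markers and 1 of 7 endothelial markers were called higher. These counts were 5, 2 and 0 without the skin-bearing libraries. Markers of other tissues lay above 0 in the same comparison with none called: 12 of 12 of skin epithelium (median log2 fold change 11.16), 12 of 12 of skeletal muscle (4.57) and 6 of 6 of adipocytes (2.76). Without those libraries the medians were 0.00 for skin, over 10 genes tested, -0.13 for muscle and 2.05 for adipocytes. Their part in the values of the list was not tested. The macrophage score, the mean log2 CPM of 12 macrophage genes, was 6.37 ± 0.43 after 5 Gy and 5.14 ± 0.43 in untreated tumours (SD, n = 4 libraries each). Its ranges, 6.03 to 6.94 and 4.65 to 5.62, did not overlap. The T cell score, the mean log2 CPM of 16 T cell genes, was 1.69 ± 0.63 and 1.19 ± 0.61, and its ranges overlapped.

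QH-II-066 alone gave the same outcome in edgeR. None of the 40 genes was called, with 0 of all 16101 genes called (0%), none had an unadjusted p under 0.05 (8.17% of all genes did), and DESeq2 called none of the 40. The median log2 fold change was 0.11 (all genes 0.01), with 29 of 40 above 0 (51.6% of all genes) and a range from -0.32 to 0.36. For 34 of 40 the interval lay within 1 log2 unit. No member's groups stood apart (1.37% of all genes higher and 1.55% lower). Limma-voom with sample weights called 5 of the 40, 4 of them higher, but it also called 4622 genes in all, where edgeR called 0 and DESeq2 16. All 5 GTPase genes lay above 0, between 0.08 and 0.27, and none passed in edgeR.

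With both treatments against untreated tumours none of the 40 was called (0% of all genes), and the median was -0.10 (all genes -0.00) with 12 of 40 above 0 (49.7% of all genes). DESeq2 and limma-voom called none of the 40, and 1 gene, Ddx58, had an unadjusted p under 0.05, which 16.2% of all genes had. Ddx58 encodes RIG-I, the cytosolic sensor of viral RNA ends. Ddx58 stood at 59.9, 74.1, 59.0 and 67.2 CPM in the untreated libraries and at 67.8, 76.9, 52.5 and 52.5 CPM after 5 Gy. With QH-II-066 it stood at 38.9, 43.3, 87.2 and 61.8 CPM, and with both treatments at 47.1, 40.2, 53.4 and 42.9 CPM. Each library with both treatments was below each untreated one, whereas the single-treatment groups reached into both ranges. The log2 fold change against untreated was -0.50 (SE 0.21, 95% interval -0.96 to -0.05, edgeR adjusted p = 0.299).

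The groups also did not overlap for Ifit2, Herc6 and Dtx3l, so that 4 of 40 genes lay wholly lower with both treatments, against 1.69% of all genes tested, and none lay wholly higher (2.53%). Ifit2 blocks translation of viral RNA, Herc6 is the ligase that attaches Isg15 in mice, and Dtx3l is a ubiquitin ligase that works with Parp9. Their log2 fold changes were -0.32 (SE 0.23), -0.33 (SE 0.20) and -0.44 (SE 0.26), with edgeR adjusted p of 0.432, 0.363 and 0.358. Ddx58 and Dtx3l are long, with exons of 7050 and 5724 bases. In this comparison the 3968 tested genes of 5724 bases or more had a median of -0.19, and 30% lay above 0. The part of gene length in the 4 of 40 was not tested. Untreated libraries held Ifit2 at 79.2, 78.5, 74.1 and 86.0 CPM and irradiated ones at 99.8, 123, 76.5 and 69.7 CPM. Its values were 55.3, 58.4, 129.8 and 73.6 CPM under QH-II-066 and 64.3, 61.3, 68.0 and 60.7 CPM under both treatments. Its highest values were in replicate 3 with QH-II-066 and replicate 2 after 5 Gy. The 3 comparisons with untreated tumours share the same 4 control libraries. Without the skin-bearing libraries the list's median turned to 0.21.

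**Figure D1:**
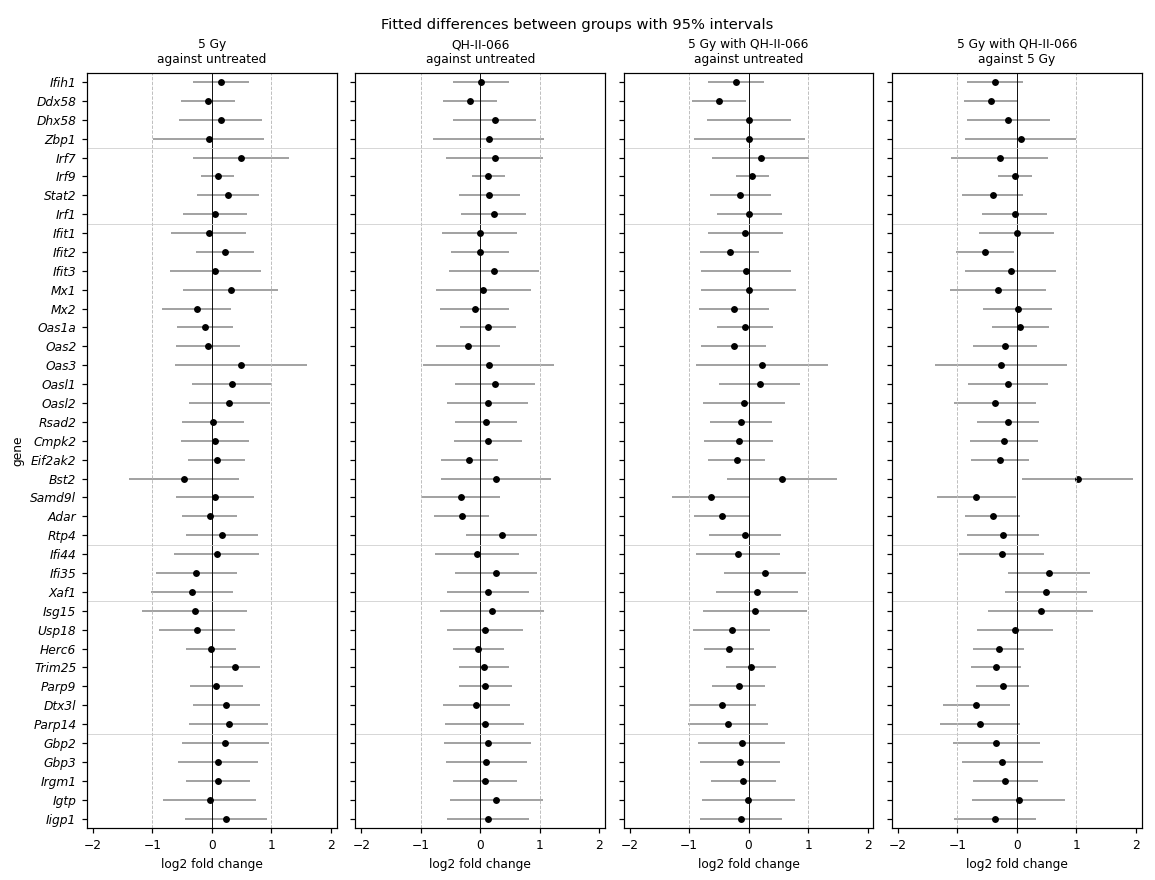
Log2 fold change (points) and 95% interval (lines) of each of the 40 genes in 4 comparisons, from the edgeR fit of 16 libraries, with dashed lines at 1 log2 unit either side of 0. Most points lie within 0.5 of 0, and none passed the adjusted threshold in any of these panels.

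Adding QH-II-066 to radiation gave the widest differences. Against 5 Gy alone none of the 40 genes was called (0% of all genes), nor by DESeq2 or limma-voom, while the median was -0.24 (all genes -0.06) and 8 of 40 lay above 0 (44.3% of all genes). An unadjusted p under 0.05 was reached by 4 of 40, Dtx3l, Bst2, Ifit2 and Samd9l, against 19.5% of all genes. Intervals lay within 1 log2 unit for 25 of 40. Without the skin-bearing libraries the median turned to 0.23, with 26 of 40 above 0 and 1 library left with both treatments.

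Dtx3l had the smallest p of its role. In untreated tumours Dtx3l was at 51.0, 59.6, 49.6 and 56.0 CPM, and after 5 Gy at 76.6, 88.2, 45.6 and 45.5 CPM. The QH-II-066 libraries had 32.5, 42.2, 85.5 and 46.7 CPM, and those with both treatments 35.2, 38.9, 41.5 and 43.9 CPM. Every library with both treatments was below every 5 Gy library, while replicate 3 of the QH-II-066 group was close to the highest after 5 Gy. The log2 fold change against 5 Gy was -0.68 (SE 0.26, 95% interval -1.25 to -0.12, edgeR adjusted p = 0.216). Dtx3l and Parp9 share exon bases on opposite strands, 8.00% of those of Dtx3l, and no strand option is recorded for the counting, so part of their counts cannot be told apart.

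Bst2 had a difference of the opposite sign. Bst2 stood at 412, 445, 321 and 1281 CPM in the untreated libraries and at 371, 487, 535 and 391 CPM after 5 Gy. With QH-II-066 it stood at 987, 766, 422 and 766 CPM, and with both treatments at 1335, 432, 558 and 1291 CPM. Replicates 1 and 4 with both treatments and replicate 4 of the untreated group stood far above the rest, and the group with both treatments overlapped 5 Gy through replicate 2. The log2 fold change against 5 Gy was 1.02 (SE 0.44, 95% interval 0.09 to 1.95, edgeR adjusted p = 0.233).

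Ifit2 and Samd9l, a restriction factor for poxviruses, completed the set with log2 fold changes of -0.54 (SE 0.23, 95% interval -1.03 to -0.04, edgeR adjusted p = 0.233) and -0.68 (SE 0.31, 95% interval -1.35 to -0.02, edgeR adjusted p = 0.248). For Ifit2 the 2 groups did not overlap, as for Dtx3l, so that 2 of 40 genes lay wholly lower, beside 3.97% of all genes, and none wholly higher (4.45%). Samd9l stood at 92.2, 95.01, 57.3 and 62.8 CPM after 5 Gy and at 33.9, 57.8, 62.8 and 36.5 CPM with both treatments. Its groups overlapped, since replicate 3 with both treatments exceeded replicate 3 after 5 Gy.

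Stat2 is the partner of Irf9 in the complex that binds the ISRE. Untreated libraries held Stat2 at 37.2, 49.8, 38.2 and 47.6 CPM and irradiated ones at 55.2, 72.1, 42.0 and 39.2 CPM. Its values were 30.0, 43.2, 75.0 and 44.2 CPM under QH-II-066 and 41.9, 33.9, 36.3 and 45.1 CPM under both treatments. Replicate 2 after 5 Gy and replicate 3 with QH-II-066 were highest, and the log2 fold change with both treatments against 5 Gy was -0.41 (SE 0.24, 95% interval -0.93 to 0.11, edgeR adjusted p = 0.328).

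Ifi35, an interferon-induced leucine zipper protein, followed Bst2. In untreated tumours Ifi35 was at 55.1, 58.2, 42.1 and 138 CPM, and after 5 Gy at 56.5, 70.8, 65.0 and 51.9 CPM. The QH-II-066 libraries had 90.3, 80.5, 85.4 and 96.6 CPM, and those with both treatments 138, 57.8, 63.7 and 95.9 CPM. Untreated replicate 4 and replicate 1 with both treatments were highest, at about the same level, and the log2 fold change against 5 Gy was 0.54 (SE 0.32, 95% interval -0.14 to 1.23, edgeR adjusted p = 0.329). An antisense gene model, Gm11626, overlaps 16.8% of its exon bases on the opposite strand. Isg15 had a like order. Isg15 stood at 61.9, 76.3, 35.5 and 195 CPM in the untreated libraries and at 60.6, 90.8, 94.1 and 55.4 CPM after 5 Gy. With QH-II-066 it stood at 98.2, 95.7, 107 and 123 CPM, and with both treatments at 164, 56.8, 88.0 and 87.4 CPM. Untreated replicates 3 and 4 were the lowest and the highest of all 16 libraries, and the log2 fold change with both treatments against 5 Gy was 0.40 (SE 0.41, 95% interval -0.48 to 1.28, edgeR adjusted p = 0.566).

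Iigp1, an immunity-related GTPase, had the smallest p of the GTPase genes. Untreated libraries held Iigp1 at 259.5, 459, 319.6 and 511 CPM and irradiated ones at 475, 743, 293 and 320.0 CPM. Its values were 277, 387, 624 and 409.7 CPM under QH-II-066 and 404, 271, 260.0 and 483 CPM under both treatments. All 4 groups overlapped, and the log2 fold change against 5 Gy was -0.37 (SE 0.32, 95% interval -1.06 to 0.32, edgeR adjusted p = 0.496). Igtp, its relative that guards vacuole membranes, was the most abundant of them per kilobase. In untreated tumours Igtp was at 348, 523, 340.1 and 953 CPM, and after 5 Gy at 481, 849, 407 and 373 CPM. The QH-II-066 libraries had 492, 602, 855 and 659 CPM, and those with both treatments 795, 326, 375 and 661 CPM. Untreated replicate 4, replicate 2 after 5 Gy, replicate 3 with QH-II-066 and replicate 1 with both treatments led their groups. Its smallest p was for both treatments against QH-II-066, with a log2 fold change of -0.27 (SE 0.37, 95% interval -1.06 to 0.51, edgeR adjusted p = 0.9997). Both changed sign when the skin-bearing libraries were left out, to 0.081 for Iigp1 and 0.29 for Igtp in the same comparisons. Igtp shares 8.01% of its exon bases with Irgm2 on the same strand.

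Zbp1 senses Z-form nucleic acids and triggers cell death. Zbp1 stood at 57.7, 95.7, 56.1 and 236 CPM in the untreated libraries and at 99.7, 166, 93.8 and 69.8 CPM after 5 Gy. With QH-II-066 it stood at 84.3, 127, 153 and 128 CPM, and with both treatments at 174, 58.5, 82.6 and 134 CPM. Untreated replicate 4 was the highest of the 16, and all groups overlapped. The log2 fold change with QH-II-066 against untreated was 0.14 (SE 0.44, 95% interval -0.79 to 1.08, edgeR adjusted p = 0.894). Irf1 activates many interferon gamma targets and was the most abundant transcription factor of the list per kilobase. Untreated libraries held Irf1 at 200.3, 243, 179 and 436 CPM and irradiated ones at 255, 377, 243 and 220.5 CPM. Its values were 282, 290.1, 340.3 and 322 CPM under QH-II-066 and 355, 203, 228 and 283 CPM under both treatments. The QH-II-066 libraries were the tightest group, and the log2 fold change against untreated was 0.22 (SE 0.26, 95% interval -0.32 to 0.77, edgeR adjusted p = 0.691).

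**Figure D2:**
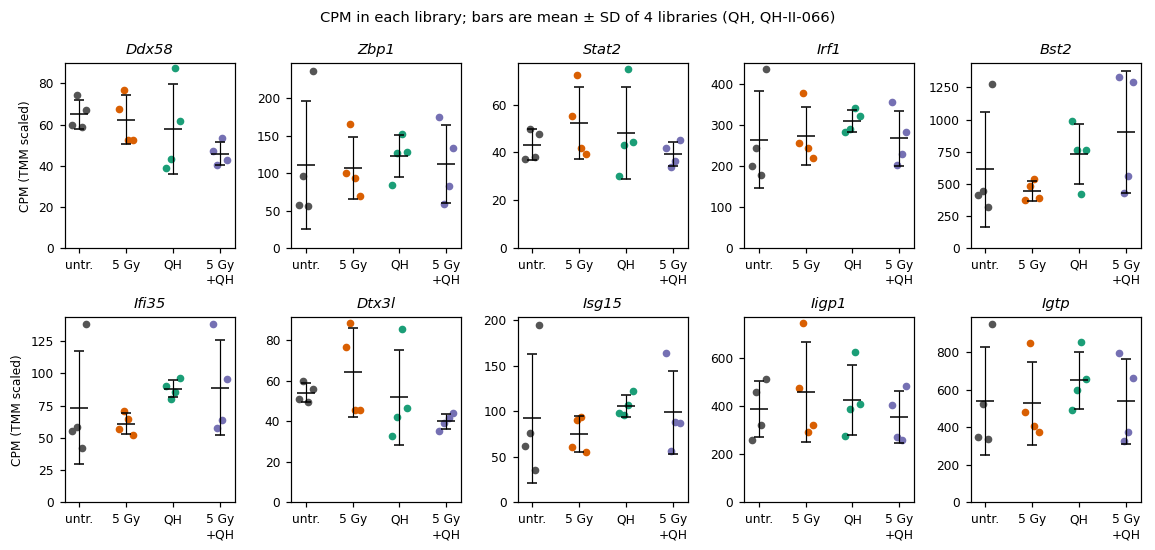
CPM of the 10 genes named by role in each library (points), with the mean and SD of each group of 4 (black). Apart from Ddx58 and Dtx3l, where the libraries with both treatments lie below all untreated ones, each pair of groups with untreated tumours overlaps, and single libraries, such as untreated replicate 4 for Bst2 and Ifi35, stand far from their own group.

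The remaining members are given by their range over the 16 libraries. Among the sensors, Ifih1 (MDA5, a sensor of long double-stranded RNA) ran from 33.8 to 68.0 CPM and Dhx58 (LGP2, which modulates both RNA sensors) from 21.1 to 58.8 CPM. Of the transcription factors, Irf7, which amplifies interferon production, ran from 17.9 to 80.5 CPM. Irf9, the DNA-binding part of the complex with Stat2, ran only from 38.2 to 53.9 CPM, the narrowest range of the list as a ratio.

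Of the antiviral effectors, the Ifit proteins bind viral RNA, and Ifit1 ran from 27.2 to 68.0 CPM and Ifit3 from 57.0 to 179 CPM. Ifit1, Ifit3 and Oas1a have near-identical copies, so their own counts are uncertain. Mx1 and Mx2, genes of the dynamin-like GTPase family, ran from 3.76 to 18.2 CPM and from 4.32 to 11.47 CPM. The oligoadenylate synthetase family feeds RNase L, and its members ran from 39.9 to 87.0 CPM for Oas1a, from 9.52 to 23.7 CPM for Oas2, from 4.32 to 29.0 CPM for Oas3, from 6.15 to 18.1 CPM for Oasl1 and from 34.5 to 108 CPM for Oasl2. Oas3 spread the most of all 40 as a ratio of highest to lowest library. Rsad2 (viperin) and its genomic neighbour Cmpk2, a nucleotide kinase, ran from 68.2 to 179 CPM and from 24.7 to 68.1 CPM. Eif2ak2 (PKR), the kinase that halts translation on double-stranded RNA, ran from 52.1 to 104 CPM, Adar from 39.5 to 93.9 CPM and Rtp4 from 25.0 to 68.2 CPM. An antisense neighbour, Chrnb2, overlaps 16.8% of the exon bases of Adar.

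In the set around Isg15, the protease that removes Isg15 from proteins, Usp18, ran from 20.4 to 58.2 CPM, and Herc6 from 73.1 to 156 CPM. Trim25, the ubiquitin ligase that acts on RIG-I, ran from 31.5 to 67.4 CPM. The ADP-ribosyltransferases Parp9 and Parp14 ran from 64.8 to 125 CPM and from 53.4 to 166 CPM. Ifi44 ran from 7.92 to 24.0 CPM and Xaf1, which opposes inhibitors of apoptosis, from 36.6 to 118 CPM. Of the GTPase genes, Gbp2 ran from 280.0 to 915 CPM, Gbp3 from 93.3 to 239 CPM and Irgm1, a regulator of the other immunity-related GTPases, from 423 to 962 CPM. In edgeR none of these genes was called in any of the 6 comparisons.

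Radiation added to QH-II-066, compared with QH-II-066 alone, called none of the 40 genes in edgeR (0% of all genes), DESeq2 or limma-voom. None had an unadjusted p under 0.05 (3.65% of all genes did). The median was -0.21 (all genes -0.02), 4 of 40 lay above 0 (46.7% of all genes), and the values ran from -0.42 to 0.30. No member's groups stood apart (1.29% of all genes higher and 0.621% lower). Without the skin-bearing libraries the median was 0.12. The interaction of radiation and drug asks whether the drug's effect differed with radiation. It called none of the 40 in edgeR (0% of all genes), DESeq2 or limma-voom, and none had an unadjusted p under 0.05 (6.96% of all genes did). Its median was -0.30 (all genes 0.03), with 7 of 40 above 0 (54.5% of all genes). When the skin-bearing libraries were left out, its median turned to 0.06 with 20 of 40 above 0, and 1 library with both treatments remained. Only 11 of the 40 intervals lay within 1 log2 unit, so a difference of that size lay within the interval for the other 29.

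The libraries in which the 40 genes were mostly highest or lowest came from all 4 groups. The highest library of 38 of the 40 genes was replicate 3 of the QH-II-066 group (17 genes), replicate 2 of the 5 Gy group (11) or replicate 4 of the untreated group (10). The lowest of 37 of the 40 was replicate 1 of the QH-II-066 group (16), replicate 3 of the untreated group (14) or replicate 2 with both treatments (7). These libraries are named from the measured values, so this is a description of them and not a comparison of groups. The pooled SD within groups exceeded the range of the group means, in log2 CPM, for 28 of 40 genes. No share over all genes was worked out for this count or for those of the highest and lowest libraries. Between the highest and the lowest library the genes differed by a median of 2.74-fold, from 1.41-fold for Irf9 to 6.72-fold for Oas3. Between the highest and the lowest group mean the median was 1.27-fold. A range over 16 single libraries is wider than one over 4 means of 4 even where groups do not differ. The 2.74-fold and the 1.27-fold are therefore not weighed against each other.

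**Figure D3:**
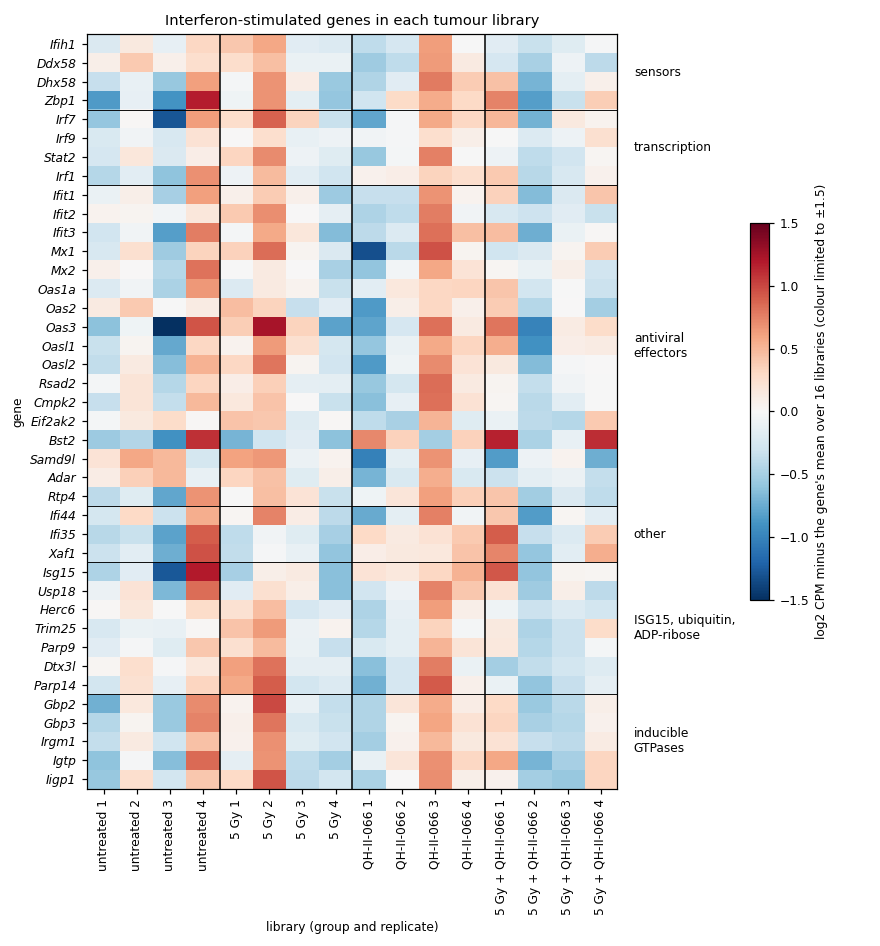
Log2 CPM of each of the 40 genes (rows, by role) in each of the 16 libraries (columns, by group), less the gene's mean over all libraries. Replicate 3 with QH-II-066, replicate 2 after 5 Gy and untreated replicate 4 are red across most rows, while Bst2, Samd9l and Adar break the pattern in several columns.

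The median deviation of the 40 genes from their means over all libraries was 0.62 on the log2 scale in replicate 3 with QH-II-066, 0.58 in replicate 2 after 5 Gy and 0.51 in untreated replicate 4. It was -0.47 in replicate 2 with both treatments, -0.46 in replicate 1 with QH-II-066 and -0.45 in untreated replicate 3. The T cell score of the first 3 was 1.56, 2.51 and 1.93, and that of the last 3 was 0.89, 0.98 and 0.74. Ifng, the gene for interferon gamma, was at 3.19, 4.17 and 3.06 CPM in the first 3 and at 1.53, 1.55 and 0.512 CPM in the last 3. The macrophage score was 5.67, 6.94 and 5.62 in the first 3 and 5.15, 5.11 and 4.65 in the last 3. Other libraries did not all keep this order. Replicate 4 with QH-II-066 had a T cell score of 1.92 at a deviation of 0.14. Replicate 4 with both treatments had Ifng at 4.02 CPM at a deviation of 0.03. Replicate 1 after 5 Gy had a macrophage score of 6.46 at a deviation of 0.09.

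After this pattern had been seen, each gene was fitted with a slope on a library score beside the group means, so that the slope rests on differences within groups. On the T cell score, 17 of the 40 genes were called, all with higher expression at a higher score, against 3.58% of all genes called in either direction and 3.40% called higher. None of the 40 is among the score's 16 genes. All 40 slopes were above 0, against 46.5% of all genes. By role, 5 of 5 GTPase genes, 3 of 4 transcription factors, 2 of 4 sensors, 3 of 7 genes of the Isg15, ubiquitin and ADP-ribose set, 3 of 17 antiviral effectors and 1 of 3 others were called. The genes called were Igtp, Gbp2, Gbp3, Iigp1, Irgm1, Irf1, Irf7, Irf9, Zbp1, Dhx58, Parp9, Parp14, Trim25, Oas3, Oasl2, Ifit3 and Xaf1.

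The slope, in log2 CPM per unit of score, was 0.96 (SE 0.12, 95% interval 0.70 to 1.22, edgeR adjusted p = 0.000611) for Igtp, and 0.88 ± 0.13 (SE) for Gbp2, 0.83 ± 0.11 for Gbp3 and 0.83 ± 0.13 for Iigp1. Zbp1 had 1.09 ± 0.17, Irf1 0.62 ± 0.10 and Irf9 0.28 ± 0.07. Oas3, which makes the second messenger that activates RNase L, had the steepest slope, 1.14 ± 0.25. Those of Isg15 at 0.76 (SE 0.24, 95% interval 0.24 to 1.27, edgeR adjusted p = 0.114) and Bst2 at 0.66 (SE 0.28, 95% interval 0.05 to 1.27, edgeR adjusted p = 0.261) were not called. Neither were Ifi35 (0.65 ± 0.17), Stat2 (0.48 ± 0.14), Dtx3l (0.40 ± 0.18), Ddx58 (0.33 ± 0.14) and Ifit2 (0.32 ± 0.16). The smallest slopes were those of Adar (0.11 ± 0.17), the enzyme that edits adenosines in double-stranded RNA, and Samd9l (0.04 ± 0.26).

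On the macrophage score 19 of the 40 were called, all higher (5.06% of all genes were called, 4.58% higher), and 39 of 40 slopes lay above 0 (46.2%). They included all 5 GTPase genes. Examples were picked after their values were seen: the slope was 1.39 ± 0.21 for Zbp1, 1.15 ± 0.18 for Igtp, 1.06 ± 0.17 for Gbp2 and 1.59 ± 0.31 for Oas3, and -0.02 ± 0.32 for Samd9l, the 1 gene below 0. Macrophage markers rose with the T cell score too, with 6 of 12 called (3.58% of all genes). T cell markers rose with the macrophage score, with 8 of 16 called (5.06% of all genes). Of the markers of natural killer cells, 2 of 7 were called on each score and all 7 lay above 0, with medians of 0.93 and 1.20. Fibroblast markers were called for 2 of 10 genes on the T cell score and 7 of 10 on the macrophage score. The slopes on the 2 scores are therefore not independent of each other. On both scores 12 of 12 skeletal muscle markers, 6 of 6 adipocyte and 6 of 7 endothelial markers lay above 0. Skin epithelium had 12 of 12 and 11 of 12 above 0, neutrophils 2 of 6 tested on each, and B cells 1 of 2. Of the melanocyte markers, 0 of 10 lay above 0 on either score, with medians of -0.16 and -0.20. The part of the share of host tissue in the slopes was not tested. The shares of genes with and without an ISRE match that were called on the T cell score were 6 of 15 and 6 of 15.

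The number of calls depended on which libraries were fitted, while the median slopes kept about their size. Without the 5 skin-bearing libraries, 11 libraries remained and neither score called any of the 40 genes or any gene at all, although the median slopes, 0.62 and 0.75, were about those of the whole set, 0.62 and 0.74, and all 40 were above 0 on each. Without the 2 libraries farthest from the median of the score, 5 of 40 genes were called on the T cell score and 4 on the macrophage score. The median slopes were 0.66 and 0.68, and 260 and 282 of all genes were called. Without replicate 2 after 5 Gy the counts were 9 and 12, beside 312 and 555 of all genes. Without untreated replicate 4 they were 9 and 12 (405 and 596 of all genes). Leaving out replicate 2 with both treatments gave 11 and 10 (389 and 455). Without replicate 3 with QH-II-066 the counts rose to 25 and 27 (600 and 882). The fit of all libraries called 576 and 815 of all 16101 genes in edgeR. DESeq2 called 29 and 28 of the 40, and 1194 and 1507 of all genes. Limma-voom called 31 and 27 of the 40, and 956 and 1004 of all genes. With the skin score as a second covariate 20 of the 40 were called on each score (609 and 858 of all genes). Whether immune cells carried these transcripts, or tumour cells made them near such cells, was not tested.

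**Figure D4:**
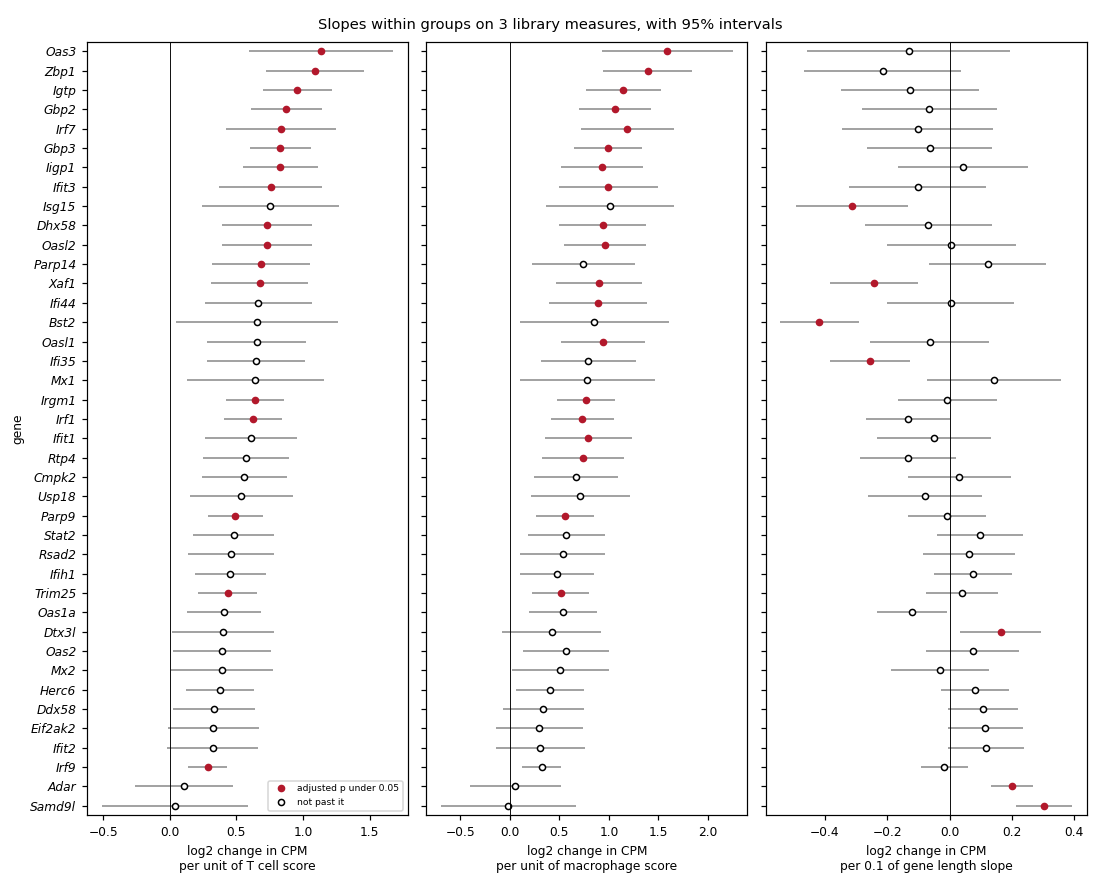
Slope of each of the 40 genes (points) with its 95% interval (lines) on the T cell score, the macrophage score and the gene length slope, fitted beside the group means. Red points had an adjusted p under 0.05: 17, 19 and 7 of 40. The slopes on the 2 cell scores lie to the right of 0 for all genes but Samd9l on the macrophage score.

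Another measure describes the libraries themselves. The gene length slope is the change of a library's log2 level, relative to the mean library, per doubling of exon length over well expressed genes, so a high value marks a library rich in long transcripts. Fitted in the same way, 7 of 40 genes were called on it, a smaller share than the 42.1% of all genes called. Samd9l, Adar and Dtx3l, with exons of 5427, 8118 and 5724 bases, were higher in libraries with a high length slope, by 0.30 ± 0.04, 0.20 ± 0.03 and 0.16 ± 0.06 log2 CPM (SE) per 0.1. Bst2, Isg15, Ifi35 and Xaf1, with exons of 764, 756, 1727 and 4689 bases, were lower, with slopes of -0.42 ± 0.06, -0.31 ± 0.08, -0.25 ± 0.06 and -0.24 ± 0.07.

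The ranges of this measure overlapped between the groups, and the difference was not tested. Its mean was 0.11 ± 0.11 after 5 Gy, 0.07 ± 0.17 in untreated tumours, -0.09 ± 0.16 with QH-II-066 and -0.09 ± 0.12 with both treatments (SD, n = 4 libraries each). In the comparison of both treatments with 5 Gy, the 10 longest members (5724 bases or more) all lay below 0, with a median of -0.37. The median of the 3968 tested genes of that length was -0.25, and 22.7% of them lay above 0. The 10 shortest members (2608 bases or fewer) were split 5 and 5, with a median of -0.00 beside 0.20 for the 5572 genes of that length. The split was chosen after the pattern was seen. Other comparisons were split in the same way. In the interaction all 10 longest members also lay below 0, with a median of -0.39, beside 0.02 for all genes of that length, of which 52.6% lay above 0. For both treatments against QH-II-066, 9 of the 10 longest and 8 of the 10 shortest lay below 0, with all genes of those lengths at -0.01 and -0.01. With the length slope in the model, Ifi35 and Isg15 changed sign for both treatments against 5 Gy, to -0.04 and -0.30. The median of the list in that fit was -0.23. The parts of gene length and of RNA quality in these differences were not tested.

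**Figure D5:**
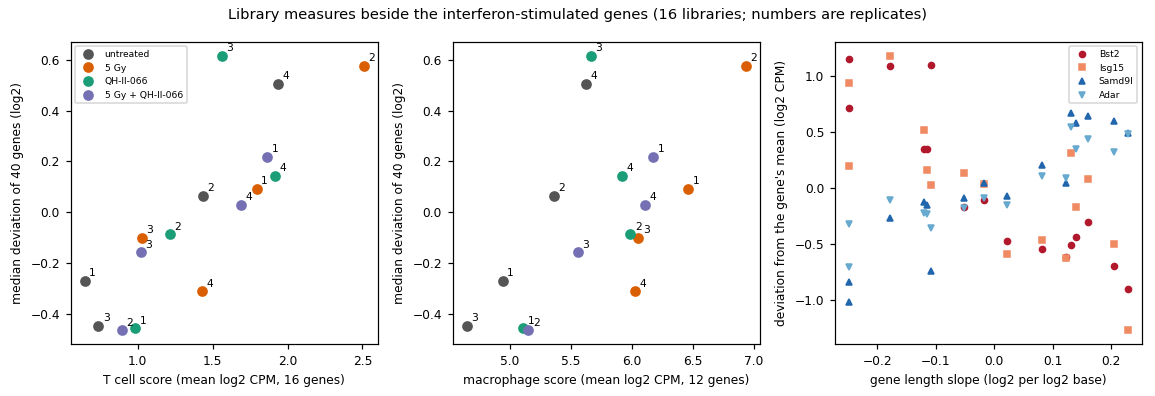
Left and middle, the median log2 deviation of the 40 genes in each library against the library's T cell and macrophage scores, coloured by group and numbered by replicate. Right, the log2 deviation of Bst2, Isg15, Samd9l and Adar from their own means against the gene length slope, where the 2 short genes fall and the 2 long genes rise from left to right.

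The rest of the pathway was read from lists of genes that are not among the 40. Transcripts of the 18 type I interferon genes themselves were too scarce for the test. Of these, 12 had no count in any library, and a count of 0 allows up to 0.429 CPM in the shallowest library and 0.0735 CPM in the deepest, by counting error alone. The libraries were made by transcriptome capture, so a gene without a probe would also read 0. Ifnb1, the gene for interferon beta, had counts of 6, 3, 7 and 3 after 5 Gy and of 0, 2, 0 and 1 in untreated tumours. It had 4, 3, 4 and 2 with QH-II-066 and 2, 5, 3 and 0 with both treatments. The 5 Gy and untreated libraries did not overlap (two-sided exact permutation test of CPM, p = 0.0286, the smallest that 4 against 4 can give, and 0.143 adjusted over 5 comparisons). Among the other type I genes, Ifnz had the most counts, 6 in replicate 1 with both treatments.

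Among 6 receptor and signalling genes, 17 tested genes of nucleic acid sensing, 6 of the interferon gamma pathway, 7 of negative feedback and 54 further interferon-stimulated genes, none was called in any of the 6 comparisons in edgeR. At an unadjusted p under 0.05 the 54 further genes gave 4 after 5 Gy, where 15.1% of all genes did, and 1 with QH-II-066 (8.17%). They gave 2 with both treatments against untreated (16.2%) and 5 against 5 Gy (19.5%). For both treatments against 5 Gy, 4 of the 6 interferon gamma pathway genes had such a p, with a list median of -0.44 (all genes -0.06), and none of the 6 did without the skin-bearing libraries, where the median was -0.40. Against untreated, 3 of 17 sensing genes did, and 2 of 17 without those libraries. The type I receptor chains Ifnar1 and Ifnar2 were at 77.1 ± 18.4 and 38.8 ± 2.57 CPM in untreated tumours (SD, n = 4).

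On the T cell score, 24 of the 54 further interferon-stimulated genes, 6 of 17 sensing genes and 2 of 7 feedback genes were called, all higher. Of all genes tested, 3.58% were called on this score and 3.40% were called higher. The 4 with the smallest p among the further genes included Tap1 (0.56 ± 0.09 log2 CPM per unit, SE), which loads peptides for MHC class I, and the GTPase genes Gbp4 (0.86 ± 0.13) and Ifi47 (0.79 ± 0.12). Ifng (1.30 ± 0.24) was called as well, and Ifnar1, Ifnar2, Jak1 and Tyk2 were not. Without the skin-bearing libraries no gene of the table was called on this score. Markers of plasmacytoid dendritic cells, which make much type I interferon, included the defining gene Siglech, which lay between 0.209 and 1.49 CPM. That marker list also holds Bst2, and 1 of its 8 genes was called on the T cell score.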

How the data were processed

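RNA from B16F10-GP tumours was sequenced on an Illumina HiSeq2500 after transcriptome capture, per the labels' protocols. The deposited values are raw fragment counts per gene, made by the authors with featureCounts 1.6.0 in paired mode on an mm10 annotation, with no strand option, per the file headers. STAR 2.4.1a and edgeR are named in the submitters' processing notes. The 16 libraries fell into 4 groups of 4 by their titles.

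From these counts, genes were filtered with filterByExpr, scaled by TMM and fitted as group means with edgeR 4.0.16 (robust quasi-likelihood, R 4.3.3), with Benjamini-Hochberg adjustment over 16101 genes and a threshold of 0.05, two-sided. CPM are TMM scaled. Scores are means of log2 CPM with a prior count of 2. The gene length slope uses genes with a mean log2 CPM above 3. DESeq2 1.42.0, limma 3.58.1 (voom), RLE scaling, other filters, a replicate block, covariates and left-out libraries were alternatives. In simulated counts for 5 Gy against untreated on 15861 genes, the test recovered 60 of 100 genes changed by 1 log2 unit. It recovered 96 of 100 changed by 2, with 6 false calls. Each gene was drawn independently around its mean over all libraries, so variation shared between genes in a library was left out. The recovery in these libraries may therefore differ.

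Members and lists were chosen with earlier results of these data known. The slopes on the 3 library measures, the length split and the printed promoters were added after seeing the data, when Ifng had also been looked at as a measure. No member passed in the 6 comparisons in edgeR, so values in every library are given for the member of each role with the smallest p and for the one most abundant per kilobase, and Ifit2, Samd9l and Herc6 were added after their values were seen. From the other lists, defining genes or those with the smallest p are named. Ifit1, Ifit3 and Oas1a have close copies whose reads the counting may split.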

Additional observations from a re-analysis of the deposited data

Results flagged for a closer look

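Bst2 stood at 1281 CPM in untreated replicate 4, while the other 3 untreated libraries lay between 321 and 445 CPM, a gap large enough to single the library out within its group of 4. Ifi35 stood at 138 CPM in the same library, with the others between 42.1 and 58.2 CPM. In all, 56 groups of 4 values were looked at, over 10 genes and 4 library measures, and chance singles out about 1 in 20 such groups, or 2.8 of 56. The 2 found are no more than that.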

How the results depend on the processing

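Alternatives gave 139 counts of members called in the 6 comparisons, of which 138 were 0. The exception was limma-voom for QH-II-066 against untreated, with 5. The medians of the 6 comparisons changed sign in 18 of 139 alternatives. The larger moves were in both treatments against 5 Gy without the skin-bearing libraries, to 0.23, and with the macrophage score as a covariate, to -0.80 for 5 Gy against untreated, -0.52 for both treatments against untreated, 0.28 for both treatments against 5 Gy and 0.60 for the interaction. The macrophage score and the length slope were added as covariates after seeing the data, and the cause was not tested. The macrophage scores after 5 Gy and in untreated tumours did not overlap, so the -0.80 rests on no shared range.

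For the slopes, which like all their alternatives were chosen after seeing the data, the counts on the T cell score were 29 in DESeq2, 31 in limma-voom and 32 with the length slope as a second covariate, 5 without the 2 libraries farthest from the median, and 0 without the skin-bearing libraries, where 5 fewer libraries were fitted. The counts on the macrophage score were 33 with the length slope added, 4 without the 2 farthest libraries and 0 without the skin-bearing ones. Leaving out 1 library at a time gave 9 to 25 on the T cell score and 10 to 27 on the macrophage score. DESeq2 and limma-voom called 1194 and 956 of all genes on the T cell score, against 576 in edgeR. The median on the length slope lay between -0.11 and 0.080, judged moved past a change of 0.1 or 1.5-fold. Over 27 alternatives the median slope stayed between 0.50 and 0.71 on the T cell score and between 0.61 and 0.82 on the macrophage score.

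Of 1099 alternative values of single genes, 29 changed sign. Samd9l on the macrophage score became 0.0034 with RLE scaling, 0.00125 in DESeq2, 0.079 in limma-voom, 0.18 with the replicate block, 0.27 without the skin-bearing libraries and 0.29 with the length slope added, and ranged from -0.30 to 0.14 with 1 library left out. On the T cell score it became -0.00310 with the skin score added and -0.14 without the 2 farthest libraries, and ranged from -0.10 to 0.21. Iigp1 became 0.081 and Igtp 0.29 without the skin-bearing libraries. With the macrophage score as a covariate Iigp1 became 0.26, Zbp1 -0.39 and Irf1 -0.083. With the length slope as a covariate Ifi35 became -0.043 and Isg15 -0.30. Zbp1 under QH-II-066 ranged from -0.074 to 0.82 with 1 library left out.

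Deviations of same-numbered libraries had correlations from -0.43 to 0.48, with 12 of 24 pairs over 0.1. Their mean was 0.077, beside -0.024 for pairs with different numbers. The numbers were not taken as pairs in the main fit. With a replicate block, 0 of 40 genes were called in each of the 6 comparisons, where the block median was -0.23 for both treatments against 5 Gy, and 20, 17 and 5 on the 3 slopes. Depth limits what can be said of the interferon genes, whose counts were 7 or fewer in each library.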
